A study of Rattus norvegicus with 14 samples.

Results

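Chemokines are small secreted proteins that attract leukocytes, and the 8 ligand genes described here are Ccl2, Ccl7 and Ccl20 of the CC class, Cxcl1, Cxcl2, Cxcl10 and Cxcl12 of the CXC class, and Cx3cl1, the only member of the CX3C class. The classes are named for the spacing of the first cysteines of the protein. The members were chosen by gene symbol out of 17312 genes, and all 8 had a row in the deposited tables. Ccl20 and Cxcl2 were listed at 0 in all 14 libraries, so 6 members had values to compare.

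The values come from RNA sequencing of cultured smooth muscle cells of the rat aorta, which were obtained from the supplier Lonza. All cells were first kept for 24 h in medium without serum. The 5 groups were 3 libraries of cells given platelet-derived growth factor (PDGF, 925 ng/ml per the labels) for 2 h after 3 h with JQ1, 3 with PDGF alone for 2 h, 3 with PDGF for 24 h after JQ1, 3 with PDGF alone for 24 h, and 2 of unstimulated cells at 0 h. PDGF is a mitogen for these cells, and JQ1, used at 500 nM, is a small molecule that displaces BET bromodomain proteins from acetylated histones. Unstimulated cells at 2 or 24 h and cells with JQ1 alone were not analysed here, so PDGF and time in culture cannot be told apart. Titles of samples without JQ1 end in the letters A to D and those with JQ1 in E to H, so whatever these letters mark and JQ1 itself cannot be told apart. Nothing in the labels says that libraries of a group came from separate cultures, so the p-values measure only the spread between these libraries, which may be technical.

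In the vessel wall, smooth muscle cells are a known source of chemokines. CCL2 and CCL7 attract monocytes through the receptor CCR2, CXCL1 and CXCL2 attract neutrophils through CXCR2, CXCL10 attracts activated T cells through CXCR3, and CCL20 acts on CCR6. CXCL12 retains progenitor cells through CXCR4 and is taken up and degraded by the atypical receptor ACKR3. CX3CL1, also called fractalkine, is made as a membrane protein that binds leukocytes through CX3CR1 and is released by the proteases ADAM10 and ADAM17. The inflammatory ligand genes are textbook targets of the transcription factor NF-kappaB.

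The bases before the start of 4 members are shown, since these genes did not all move in the same way. Whether the bases bear on the changes was not tested. RefSeq promoter sequences of build GRCr8 matched 7 of the 8 members by symbol, all but Ccl2. Each line gives the 250 bases that end just before the annotated start, 5′ to 3′ on the gene's strand. Capitals mark matches, on either strand, to the kappaB consensus, the CArG box, an AP-1 pattern or the interferon-response core (GAAA, any 2 bases, GAAA). The AP-1 pattern was TGANTCA, where N is any base.
Ccl7, chr10:67513845-67514094, plus strand: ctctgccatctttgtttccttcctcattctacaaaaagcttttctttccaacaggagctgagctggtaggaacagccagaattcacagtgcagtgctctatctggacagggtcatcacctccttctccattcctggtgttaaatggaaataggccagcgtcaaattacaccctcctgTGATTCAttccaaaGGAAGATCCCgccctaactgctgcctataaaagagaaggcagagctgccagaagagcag
Cxcl10, chr14:15988816-15989065, plus strand: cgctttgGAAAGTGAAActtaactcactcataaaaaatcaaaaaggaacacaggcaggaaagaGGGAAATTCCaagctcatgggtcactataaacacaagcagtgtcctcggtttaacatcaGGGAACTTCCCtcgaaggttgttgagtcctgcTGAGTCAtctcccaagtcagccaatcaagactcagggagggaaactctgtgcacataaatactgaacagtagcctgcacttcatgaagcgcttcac
Cxcl1, chr14:17479322-17479571, minus strand: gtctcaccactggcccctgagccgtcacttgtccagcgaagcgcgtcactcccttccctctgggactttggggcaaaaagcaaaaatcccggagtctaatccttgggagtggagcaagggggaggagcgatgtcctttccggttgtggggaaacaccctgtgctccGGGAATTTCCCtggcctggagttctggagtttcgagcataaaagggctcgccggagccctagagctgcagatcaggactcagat
Cxcl12, chr4:152060531-152060780, plus strand: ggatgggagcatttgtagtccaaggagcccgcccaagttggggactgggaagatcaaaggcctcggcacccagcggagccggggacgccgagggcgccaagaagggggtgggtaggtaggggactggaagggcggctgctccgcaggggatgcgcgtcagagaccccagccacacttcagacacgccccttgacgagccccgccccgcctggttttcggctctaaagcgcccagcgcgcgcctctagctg
A kappaB match, the kind of site that NF-kappaB binds, was found before 5 of the 7 members, against 6.33% of 33469 RefSeq promoters of the same length. Counted from the start, with the base before it at -1, the match in Ccl7 lay at -59 to -50. Next to it, the AP-1 pattern was matched by TGATTCA at -73 to -67. In Cxcl1 overlapping matches covered -84 to -74. Cxcl10 had a kappaB match at -187 to -178, an overlapping pair at -128 to -118, an AP-1 match at -96 to -90 and an interferon-response core at -243 to -234. The other two genes with a kappaB match were Cxcl2 (-74 to -64, an overlapping pair) and Ccl20 (-89 to -80), which were listed at 0. No match to any of the 4 patterns lay in these bases of Cxcl12 or Cx3cl1. No member had a CArG box match, a pattern found in 1.5% of the promoters, while AP-1 and the interferon-response core were found in 6.34% and 3.41%. Matches to different patterns did not overlap.

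Levels are given as normalised FPKM, which is fragments scaled to transcript length and library total, after the authors' own adjustment, so levels of different genes may be compared per length. An unnormalised value of 0 most often became 0.0885 to 0.111 on this scale, depending on the library, but the same 0 stands at 0.0674 and 0.207 for Cxcl1 in a pair of libraries. Group values are means with the SD. Differences are fitted on log2(normalised FPKM + 1), so changes of low genes are understated. They carry the SE of a linear model over all 14 libraries (limma) and a p adjusted by Benjamini-Hochberg over 10133 tested genes, with a threshold of 0.05. A gene was tested when it reached 1 normalised FPKM in at least 2 libraries. Among the members, Cxcl10 passed this filter only through groups with PDGF, so its calls against 0 h depend on the filter. The libraries held 9901 to 11503 genes above 0. The number of reads is unknown, because low values of library pairs shared no common step (at most 18.8% of the genes low in both libraries of a pair had the same ratio).

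**Figure D1:**
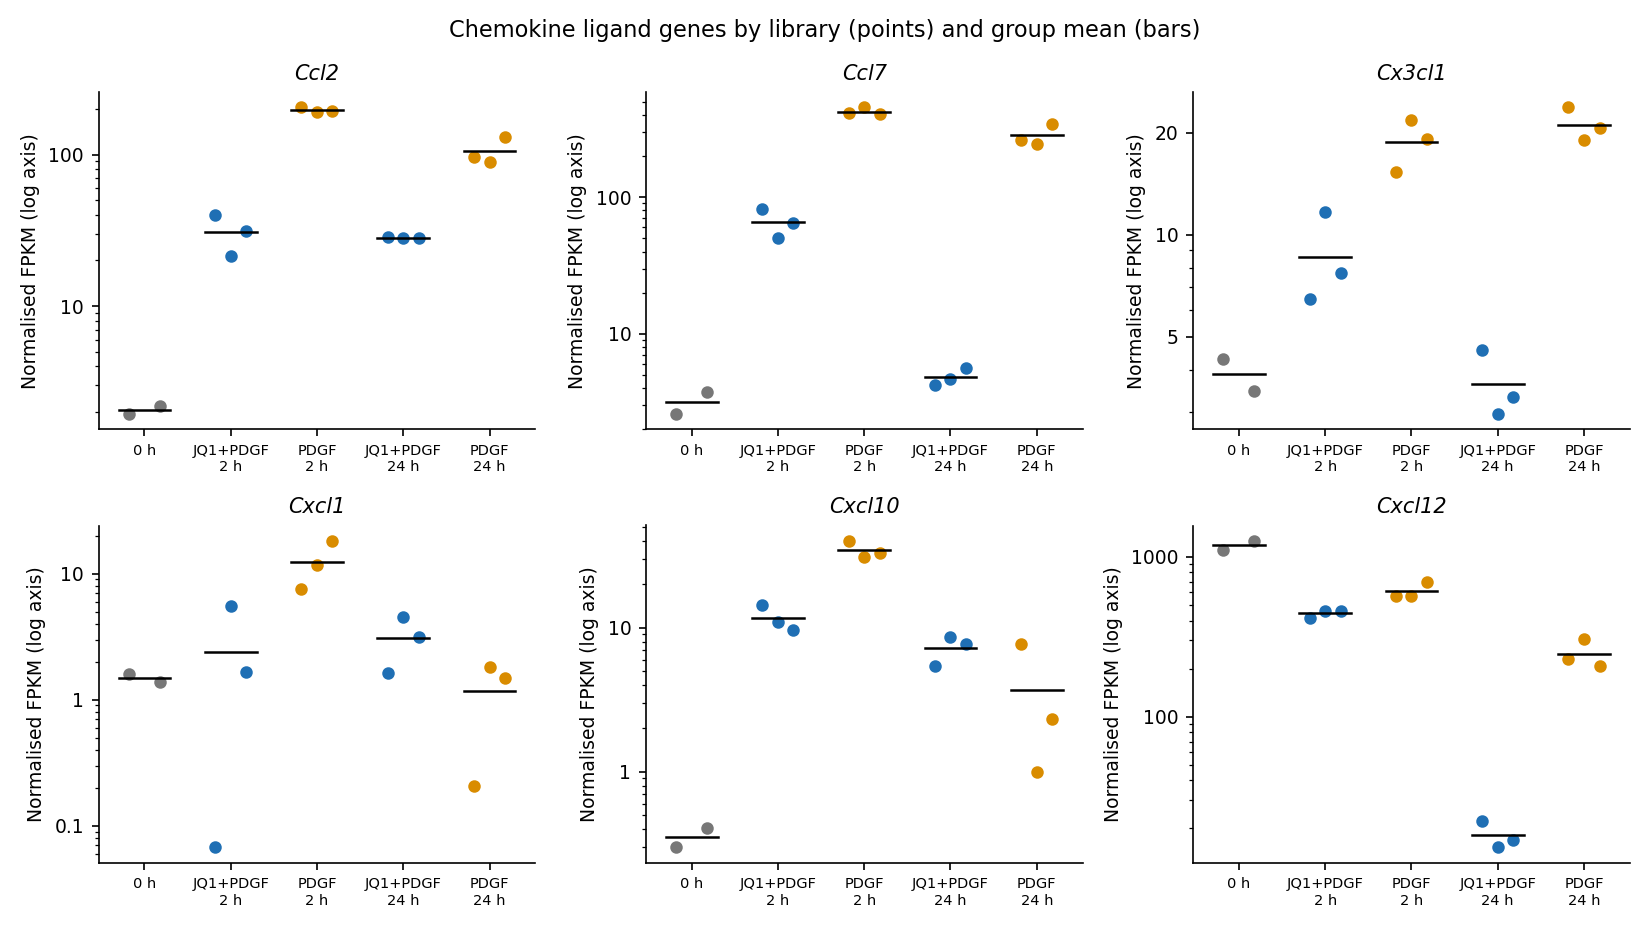
Normalised FPKM (log axis) of the 6 detected ligand genes in each of the 14 libraries; points are libraries, horizontal bars are group means, with grey for 0 h, blue for JQ1 plus PDGF and orange for PDGF. Ccl2, Ccl7, Cx3cl1, Cxcl1 and Cxcl10 are above 0 h in every PDGF 2 h library, whereas Cxcl12 is lower in every library with PDGF than at 0 h.

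Unstimulated cells expressed mainly Cxcl12. It stood at 1098 and 1261 normalised FPKM at 0 h, rank 76 among 17312 genes. The other detected ligands lay between 0.299 and 4.30 normalised FPKM. Their order by mean level at 0 h was Cx3cl1 (3.88), Ccl7 (3.16), Ccl2 (2.07), Cxcl1 (1.49) and Cxcl10 (0.354), and the ranges of Cx3cl1 and Ccl7 overlapped. Cxcl12 made up 99.8 and 99.9% of the summed CXC level in the unstimulated libraries.

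PDGF for 2 h raised 5 of the 6 tested members and lowered Cxcl12. Of all tested genes, 17.7% rose and 12.7% fell in the same comparison. The median difference of the 6 members was 3.54 on the log2 scale, against 0.01 for all tested genes. After 24 h of PDGF, 4 of the 6 were higher than at 0 h, 1 was lower and 1 did not pass, beside 37.7% of genes higher and 4.85% lower. The median difference was then 1.85 for the members and 0.41 for all tested genes. Between 2 and 24 h of PDGF, 5 of the 6 fell and Cx3cl1 did not pass, beside 11.8% of genes lower and 44.5% higher. These comparisons share libraries and are set side by side only. The counts against 0 h include Cxcl10, which was tested only through groups with PDGF.

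The CC ligands Ccl2 and Ccl7 had the largest differences among the members on the log2(normalised FPKM + 1) scale. As a ratio of means, 2 h of PDGF over 0 h, Ccl7 stood at 134, Cxcl10 at 98 and Ccl2 at 95.4. Ccl7 had 2.59 and 3.73 normalised FPKM at 0 h, 404, 412 and 455 after 2 h of PDGF, and 246, 261 and 342 after 24 h. The 3 times did not overlap, and the level was highest at 2 h. The fitted log2 difference was 6.69 ± 0.20 (SE) at 2 h against 0 h (limma, adjusted p = 4.33e-12), 6.09 ± 0.20 at 24 h against 0 h (adjusted p = 1.19e-11) and -0.59 ± 0.18 at 24 h against 2 h (adjusted p = 0.00995). The last call was lost when replicate 1 of PDGF 2 h and replicate 0 of PDGF 24 h were both left out (-0.49, adjusted p = 0.0837).

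Ccl2 had 1.94 and 2.19 normalised FPKM at 0 h, 192, 195 and 205 after 2 h of PDGF, and 89.1, 96.4 and 130 after 24 h. Here too the times did not overlap and the 2 h libraries were highest. On the log2 scale the difference was 6.01 ± 0.20 at 2 h against 0 h (limma, adjusted p = 1.05e-11), 5.10 ± 0.20 at 24 h against 0 h (adjusted p = 1.01e-10) and -0.92 ± 0.18 at 24 h against 2 h (adjusted p = 0.00059). Ccl2 and Ccl7 are neighbours in the RefSeq order of rat coding genes, followed by Ccl11, the eotaxin gene. Ccl7 stood at 1.33 and 1.70 times the Ccl2 level at 0 h, at 2.01 to 2.38 times in the PDGF 2 h libraries and at 2.63 to 2.76 times in the PDGF 24 h libraries.

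The CXC ligands Cxcl10 and Cxcl1 were higher at 2 h of PDGF and lower at 24 h than at 2 h. Cxcl10 had 0.299 and 0.409 normalised FPKM at 0 h, 30.9, 33.0 and 40.1 after 2 h of PDGF, and 0.995, 2.31 and 7.72 after 24 h. The 24 h libraries spread widely and still lay above 0 h. Both 0 h libraries lay below the filter, so Cxcl10 was tested only through groups with PDGF. Its calls against 0 h are given as description and not read as support. The log2 difference was 4.71 ± 0.42 at 2 h against 0 h (limma, adjusted p = 4.68e-07) and -3.20 ± 0.37 at 24 h against 2 h (adjusted p = 6.04e-06). At 24 h against 0 h it was 1.51 ± 0.42 (adjusted p = 0.00895), a call that was lost on the median-centred scale (1.25, adjusted p = 0.0505), when only the compared groups were fitted (adjusted p = 0.0628) and without unstimulated replicate 0 (1.46, adjusted p = 0.0639).

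Cxcl1 had 1.38 and 1.59 normalised FPKM at 0 h, 7.53, 11.7 and 18.2 after 2 h of PDGF, and 0.207, 1.48 and 1.83 after 24 h. The 2 h libraries did not overlap with the other times, whereas the 24 h and 0 h libraries did. The lowest 24 h library, replicate 0, was listed at 0 in the unnormalised table. The fitted log2 difference was 2.36 ± 0.58 at 2 h against 0 h (limma, adjusted p = 0.00667) and -2.65 ± 0.52 at 24 h against 2 h (adjusted p = 0.000576). At 24 h against 0 h it was -0.29 with a 95% interval of -1.53 to 0.96 (adjusted p = 0.719). Rat Cxcl1, Cxcl2 and Cxcl3 are similar in sequence, and how reads were shared among them is not given, so the Cxcl1 values are uncertain. With a pseudocount of 0.1 the 2 h difference of Cxcl1 did not pass (2.90, adjusted p = 0.0548).

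Cxcl12 went the other way. It had 1098 and 1261 normalised FPKM at 0 h, 567, 573 and 695 after 2 h of PDGF, and 209, 230 and 307 after 24 h. Each time lay below the one before with no overlap, and the rank of Cxcl12 among all genes was 76 at 0 h, 181 at 2 h and 469 at 24 h. On the log2 scale the difference was -0.95 ± 0.17 at 2 h against 0 h (limma, adjusted p = 0.000729), -2.26 ± 0.17 at 24 h against 0 h (adjusted p = 1.25e-07) and -1.31 ± 0.15 at 24 h against 2 h (adjusted p = 6.61e-06). In bulk RNA, fewer cells that express a gene and less RNA per cell cannot be told apart.

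Cx3cl1 was raised at both times to a similar level. It had 3.46 and 4.30 normalised FPKM at 0 h, 15.3, 19.2 and 21.7 after 2 h of PDGF, and 19.0, 20.7 and 23.8 after 24 h. The libraries at 2 and 24 h overlapped and all lay above 0 h. The log2 difference was 2.01 ± 0.24 at 2 h (limma, adjusted p = 1.04e-05) and 2.18 ± 0.24 at 24 h (adjusted p = 4.63e-06), both against 0 h. Between 24 and 2 h it was 0.17 with a 95% interval of -0.28 to 0.62 (adjusted p = 0.51), and its sign turned on the median-centred scale (-0.21, adjusted p = 0.296).

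**Figure D2:**
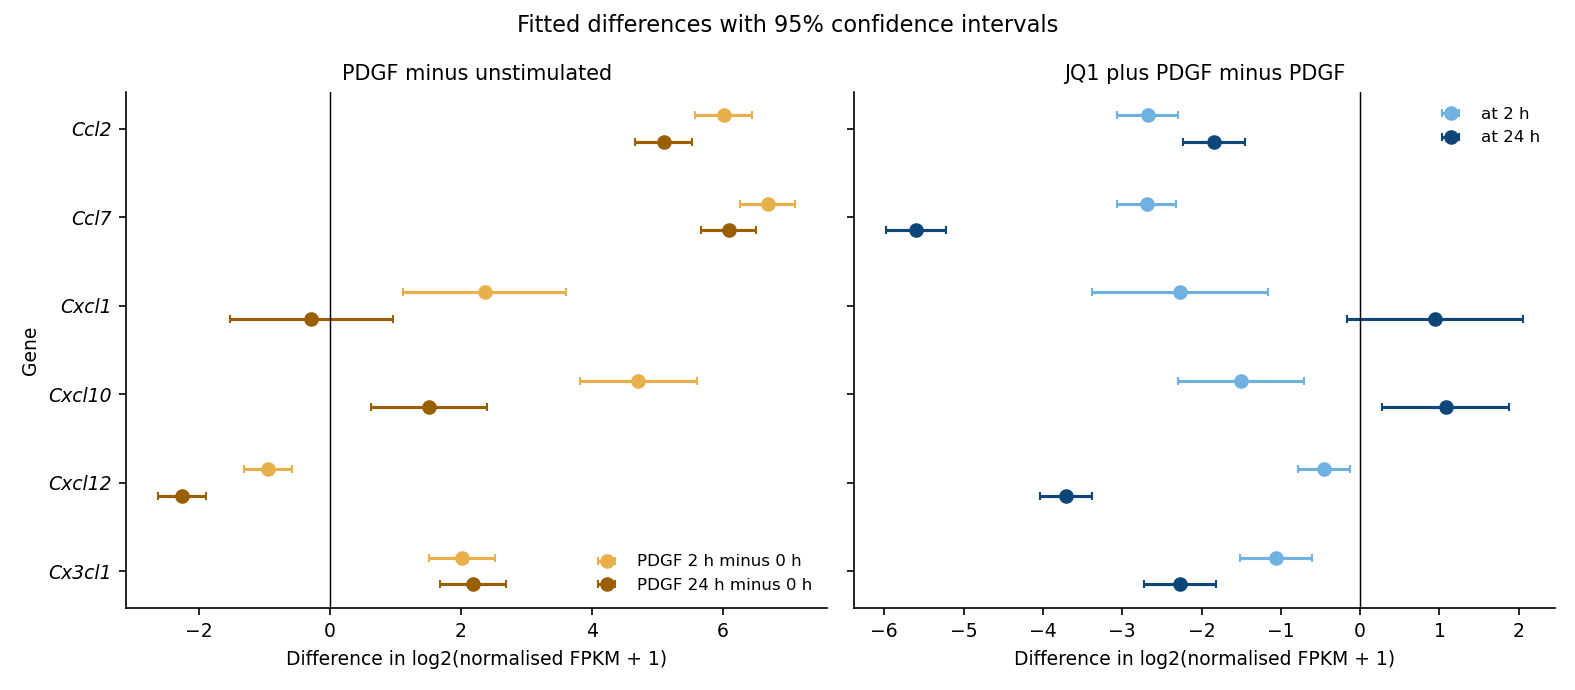
Fitted difference in log2(normalised FPKM + 1) for each tested ligand gene, with 95% confidence intervals from limma; the left panel shows PDGF minus 0 h at 2 and 24 h, the right panel JQ1 plus PDGF minus PDGF at 2 and 24 h. Ccl7 stands at 6.69 and 6.09 on the left, and at 24 h on the right it stands at -5.60 while Cxcl10 lies above 0.

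Pretreatment with JQ1 left all 6 tested members lower than PDGF alone at 2 h, beside 34.0% of all tested genes that were lower and 7.24% that were higher. The median difference of the members was -1.89 on the log2 scale, against -0.29 for all tested genes. At 24 h 4 members were lower with JQ1, Cxcl10 was higher and Cxcl1 did not pass, beside 48.5% of genes lower and 4.61% higher. The median was then -2.06, against -0.48 for all tested genes. On a scale that centres each library on the median gene, 5 members were lower at 2 h, with Cxcl12 no longer passing, beside 21.5% of genes lower and 20.1% higher. At 24 h 4 were lower and 1 higher on that scale, beside 25.8% lower and 23.1% higher.

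Ccl2 and Ccl7 fell together at 2 h and came apart at 24 h. At 2 h Ccl7 had 50.3, 65.1 and 82.6 normalised FPKM with JQ1 plus PDGF, against 404, 412 and 455 with PDGF. At 24 h it had 4.20, 4.70 and 5.57 with JQ1 plus PDGF, against 246, 261 and 342 with PDGF. At neither time did the groups overlap, and the mean with JQ1 was 15.6% of the PDGF mean at 2 h and 1.70% at 24 h. The fitted log2 difference was -2.69 ± 0.18 at 2 h (limma, adjusted p = 4.74e-08) and -5.60 ± 0.18 at 24 h (adjusted p = 2.44e-12).

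Ccl2 had 21.3, 31.3 and 39.9 normalised FPKM with JQ1 plus PDGF at 2 h, against 192, 195 and 205 with PDGF. At 24 h it had 28.0, 28.2 and 28.5 with JQ1 plus PDGF, against 89.1, 96.4 and 130 with PDGF. The groups did not overlap at either time, and the mean with JQ1 was 15.7% of the PDGF mean at 2 h and 26.8% at 24 h. On the log2 scale the difference was -2.68 ± 0.18 at 2 h (limma, adjusted p = 6.28e-08) and -1.84 ± 0.18 at 24 h (adjusted p = 6.02e-07). Ccl7 therefore stood at 0.148 to 0.197 times the Ccl2 level in the JQ1 plus PDGF 24 h libraries, against 2.63 to 2.76 times in the PDGF 24 h libraries. At 2 h the ratio was 2.07 to 2.35 with JQ1 plus PDGF and 2.01 to 2.38 with PDGF, which overlapped. The unnormalised values gave ratios of 0.144 to 0.197 with JQ1 plus PDGF and 2.62 to 2.77 with PDGF at 24 h.

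**Figure D3:**
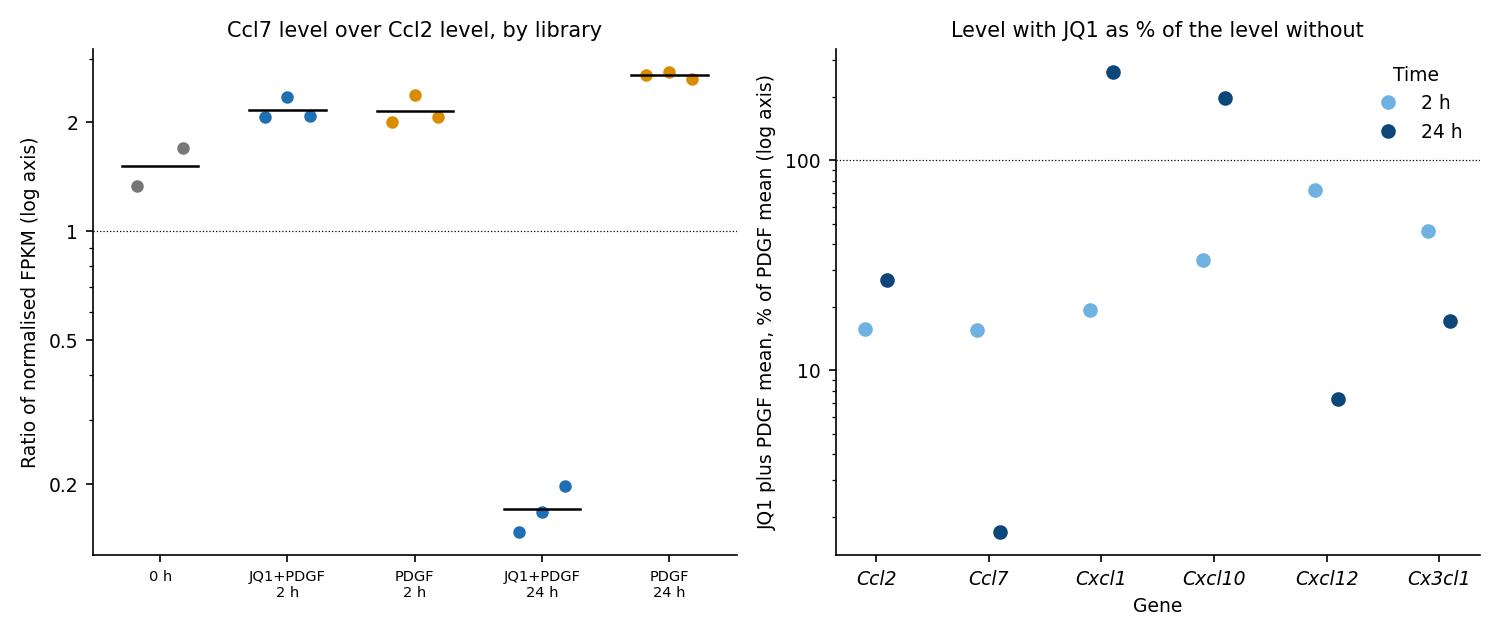
Left, the level of Ccl7 divided by that of Ccl2 (ratio of normalised FPKM, log axis) in each library, with bars at group means; right, the mean level with JQ1 plus PDGF as a percentage of the PDGF mean (log axis) for each gene at 2 and 24 h. Libraries with JQ1 plus PDGF at 24 h lie at 0.148 to 0.197 on the left, below 1, and on the right Ccl7 (1.70%) and Cxcl12 (7.28%) are lowest at 24 h while Cxcl1 and Cxcl10 lie above 100%.

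Cxcl12 differed little at 2 h and strongly at 24 h with JQ1. At 2 h it had 413, 457 and 459 normalised FPKM with JQ1 plus PDGF, against 567, 573 and 695 with PDGF. The groups did not overlap and the log2 difference was -0.46 ± 0.15 (limma, adjusted p = 0.0267). It was -0.11 on the median-centred scale (adjusted p = 0.486), and the call was also lost without PDGF 2 h replicate 2 (adjusted p = 0.101), without JQ1 plus PDGF 2 h replicate 0 (adjusted p = 0.0889) and without the mean trend (adjusted p = 0.0518). At 24 h Cxcl12 had 15.2, 16.9 and 22.2 normalised FPKM with JQ1 plus PDGF, against 209, 230 and 307 with PDGF. The mean was 7.28% of the PDGF mean, the groups lay far apart, and the log2 difference was -3.70 ± 0.15 (adjusted p = 4.51e-11). Its rank among all genes was 4023 with JQ1 plus PDGF at 24 h, against 469 with PDGF.

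Cx3cl1 had 6.48, 7.69 and 11.6 normalised FPKM with JQ1 plus PDGF at 2 h, against 15.3, 19.2 and 21.7 with PDGF. At 24 h it had 2.96, 3.33 and 4.57 with JQ1 plus PDGF, against 19.0, 20.7 and 23.8 with PDGF. No library with JQ1 reached the range of PDGF alone. The log2 difference was -1.06 ± 0.21 at 2 h (limma, adjusted p = 0.000988) and -2.27 ± 0.21 at 24 h (adjusted p = 3.52e-07).

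Cxcl10 and Cxcl1 were lower with JQ1 at 2 h but not at 24 h. Cxcl10 had 9.61, 11 and 14.3 normalised FPKM with JQ1 plus PDGF at 2 h, against 30.9, 33.0 and 40.1 with PDGF, a log2 difference of -1.51 ± 0.37 (limma, adjusted p = 0.00471). At 24 h it had 5.42, 7.77 and 8.63 with JQ1 plus PDGF, against 0.995, 2.31 and 7.72 with PDGF. The ranges overlapped at 24 h through PDGF 24 h replicate 0, and the difference was 1.08 ± 0.37 (adjusted p = 0.0241). This call was lost without a filter on low values (adjusted p = 0.0593), when only the compared groups were fitted (adjusted p = 0.0504), and without PDGF 24 h replicate 1 (0.60, adjusted p = 0.144), PDGF 24 h replicate 2 (adjusted p = 0.0767), JQ1 plus PDGF 24 h replicate 1 (adjusted p = 0.0861) or JQ1 plus PDGF 24 h replicate 2 (adjusted p = 0.0675).

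Cxcl1 had 0.0674, 1.66 and 5.49 normalised FPKM with JQ1 plus PDGF at 2 h, against 7.53, 11.7 and 18.2 with PDGF. The lowest JQ1 library, replicate 0, was listed at 0 in the unnormalised table. The fitted log2 difference was -2.27 ± 0.52 (limma, adjusted p = 0.00275). At 24 h Cxcl1 had 1.64, 3.12 and 4.53 with JQ1 plus PDGF, against 0.207, 1.48 and 1.83 with PDGF. These ranges overlapped, and the difference was 0.94 with a 95% interval of -0.17 to 2.05 (adjusted p = 0.141). It passed when only the compared groups were fitted (adjusted p = 0.0384).

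The change in the JQ1 difference between 24 and 2 h was itself tested. It passed in each of the 6 tested members, beside 17.5% of genes with a lower and 4.82% with a higher difference at 24 h. It was -3.25 ± 0.22 on the log2 scale for Cxcl12 (limma, adjusted p = 8.03e-08), -2.91 ± 0.25 for Ccl7 (adjusted p = 9.77e-07) and -1.21 ± 0.30 for Cx3cl1 (adjusted p = 0.00914). It was positive for Cxcl1 (3.22 ± 0.74, adjusted p = 0.00551), Cxcl10 (2.58 ± 0.53, adjusted p = 0.00249) and Ccl2 (0.84 ± 0.26, adjusted p = 0.0282). The signs differed within the CXC class, between Cxcl12 and both other genes. They also differed between Ccl7 and Ccl2, but the Ccl2 call was lost in 8 alternatives (0.60 to 0.84, adjusted p from 0.0540 to 0.0765).

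Levels with JQ1 plus PDGF were also compared with 0 h. The counts of higher members include Cxcl10, which was tested only through groups with PDGF. At 2 h 4 of the 6 tested members were higher than at 0 h and Cxcl12 was lower, beside 13.2% of genes higher and 33.7% lower. Ccl7 was still 4.0 ± 0.20 and Ccl2 3.33 ± 0.20 above 0 h on the log2 scale, Cxcl10 3.21 ± 0.42 and Cx3cl1 0.95 ± 0.24 (limma, adjusted p from 4.20e-10 to 0.00414). Cxcl1 was at 0.09 with a 95% interval of -1.15 to 1.33. At 24 h 2 members were higher and 1 was lower, beside 17.6% of genes higher and 23.4% lower. Ccl2 stood 3.26 ± 0.20 (adjusted p = 3.80e-09) and Cxcl10 2.59 ± 0.42 (adjusted p = 0.000129) above 0 h, while Cxcl12 stood at -5.96 ± 0.17 (adjusted p = 1.18e-12), with a mean 1.53% of that at 0 h.

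Cx3cl1 had 2.96, 3.33 and 4.57 normalised FPKM with JQ1 plus PDGF at 24 h, against 3.46 and 4.30 at 0 h, and these ranges overlapped (-0.09, 95% interval -0.59 to 0.42). Ccl7, at 4.20 to 5.57 with JQ1 plus PDGF at 24 h, against 2.59 and 3.73 at 0 h, did not overlap, but its difference of 0.49 did not pass (limma, adjusted p = 0.0568). It passed with a pseudocount of 0.1 (0.61, adjusted p = 0.0294), on the median-centred scale (0.59, adjusted p = 0.0491), with robust empirical Bayes (adjusted p = 0.0435) and without unstimulated replicate 1 (0.69, adjusted p = 0.0413).

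Set against each other, the CC members drew level with the CXC members after 2 h of PDGF. The summed level of Ccl2 and Ccl7 was 5.22 ± 0.98 normalised FPKM at 0 h (SD, n = 2), 621 ± 24.3 after 2 h of PDGF and 389 ± 73.6 after 24 h (SD, n = 3 each). The summed level of Cxcl1, Cxcl10 and Cxcl12 was 1181 ± 115 at 0 h (SD, n = 2), 659 ± 75.7 after 2 h and 253 ± 50.6 after 24 h (SD, n = 3 each). The CC share of all 6 detected ligands was 0.408 and 0.465% at 0 h, 43.9 to 50.3% after 2 h of PDGF and 50.5 to 67.0% after 24 h. Since Cxcl12 made up at least 92.3% of the CXC sum in these libraries, the class sum follows that gene. Cxcl1 and Cxcl10 together reached 42.6 to 51.2 normalised FPKM at 2 h of PDGF, against 1.79 and 1.89 at 0 h.

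The CC sum was 96.9 ± 25.5 normalised FPKM with JQ1 plus PDGF, against 621 ± 24.3 with PDGF at 2 h, and the CXC sum was 457 ± 25.8 against 659 ± 75.7 (SD, n = 3 each). The CC share was 12.8 to 22.0% with JQ1 plus PDGF and 43.9 to 50.3% with PDGF. Cxcl12 made up 96.5 to 97.6% of the CXC sum with JQ1 plus PDGF at 2 h. Its own JQ1 difference at 2 h did not pass on the median-centred scale (-0.11, limma adjusted p = 0.486). In unnormalised FPKM its mean with JQ1 was 92.3% of the PDGF mean. Without Cxcl12, Cxcl1 plus Cxcl10 reached 11.3 to 16.5 with JQ1 plus PDGF, against 42.6 to 51.2 with PDGF, with no overlap. The mean with JQ1 was 19.3% of the PDGF mean for Cxcl1 and 33.6% for Cxcl10, beside 15.7% for Ccl2 and 15.6% for Ccl7. At 24 h both sums were low with JQ1, at 33.1 ± 0.63 for CC and 28.5 ± 0.73 for CXC, against 389 ± 73.6 and 253 ± 50.6 with PDGF (SD, n = 3 each). The CC share was then 49.2 to 52.1% with JQ1 plus PDGF and 50.5 to 67.0% with PDGF, which overlapped. Ccl2 was the most abundant of the 6 with JQ1 plus PDGF at 24 h (28.3), followed by Cxcl12 (18.1), Cxcl10 (7.27), Ccl7 (4.82), Cx3cl1 (3.62) and Cxcl1 (3.10), and from Cxcl10 down the ranges of neighbours in this order overlapped. No test is given for the sums, because the members were chosen by name with earlier results known.

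**Figure D4:**
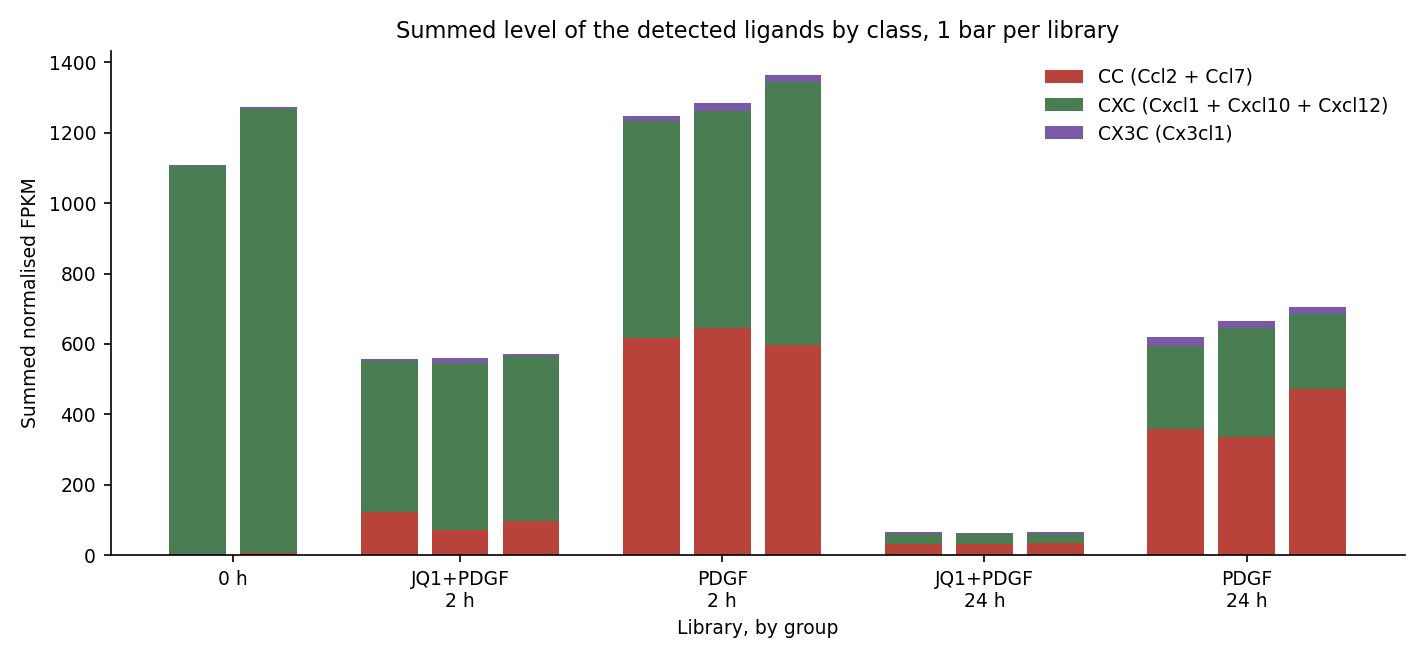
Summed normalised FPKM of the detected ligands in each library (1 bar per library), stacked by class: CC is Ccl2 plus Ccl7, CXC is Cxcl1 plus Cxcl10 plus Cxcl12, CX3C is Cx3cl1. The CC part is 4.53 and 5.92 at 0 h and 599 to 647 at 2 h of PDGF, and with JQ1 plus PDGF at 24 h all 6 ligands together reach 64.1 to 66.5.

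Of 28 other chemokine ligand genes listed, all had a row and 6 were tested. Cxcl16, a transmembrane CXC ligand, and Mif, a cytokine that also binds chemokine receptors, passed as higher at 2 h of PDGF (0.86 ± 0.21 and 0.65 ± 0.19). Both also passed at 24 h (1.96 ± 0.21 and 2.02 ± 0.19), each time against 0 h. The 4 others did not pass at either time. Of all tested genes, 17.7% were higher at 2 h and 37.7% at 24 h. With JQ1 Cxcl16 fell by 1.52 at 2 h and by 1.15 at 24 h relative to PDGF, and Mif fell by 0.91 at 24 h. Beside this, 34.0% of all tested genes were lower at 2 h and 48.5% at 24 h. On the median-centred scale Cxcl16 stood at -1.23 and -0.64, and Mif at -0.41, and each still passed. Xcl1, a lymphotactin gene, was above 0 in 2 libraries, both with JQ1 plus PDGF at 2 h. It was tested only through that group, so its call there is not read. The relatives next to the members were low. Ccl11, beside Ccl7, had unnormalised FPKM of 0.327, 0.392 and 4.71 after 2 h of PDGF and was listed at 0 in both 0 h libraries. At 24 h it had 0, 0 and 0.0905 with JQ1 plus PDGF, against 0.737, 1.09 and 3.56 with PDGF. It was tested only through libraries with PDGF alone, so its call against them is not read. Ccl12, the gene after Ccl11, was listed at 0 in 13 of 14 libraries. The genes on either side of Cxcl10, Cxcl11 and Cxcl9, were listed at 0 in 12 and 11 of 14, and Cxcl2, beside Cxcl1, in all 14. An exact 0 in these tables may be a failed estimate.

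Of 23 receptor genes listed, 19 had a row and 2 were tested, Ackr3 and Ccrl2. Ackr3, the receptor that scavenges CXCL12, had 83.8 and 101 normalised FPKM at 0 h, 23.3, 23.6 and 30.9 after 2 h of PDGF, and 14.7, 16.9 and 24.3 after 24 h. It had 13.3, 13.5 and 15.2 with JQ1 plus PDGF at 2 h, and 1.35, 1.56 and 1.67 with JQ1 plus PDGF at 24 h, below PDGF alone at each time. Its log2 difference was -1.80 ± 0.20 at 2 h and -2.27 ± 0.20 at 24 h of PDGF against 0 h, and -0.84 ± 0.18 at 2 h and -2.93 ± 0.18 at 24 h for JQ1 plus PDGF against PDGF (limma, adjusted p from 3.23e-09 to 0.00169). Ackr3 thus fell in the same 4 comparisons as Cxcl12 on this scale. For Cxcl12 the call with JQ1 at 2 h was lost on the median-centred scale (-0.11, limma adjusted p = 0.486) and in other alternatives. Cxcr4, the signalling receptor of CXCL12, was listed at 0 in 8 of 14 libraries and reached at most 0.617 unnormalised FPKM. Ccr1, Ccr6, Cxcr2 and Cx3cr1 were listed at 0 in all 14, and Ccr2 was not analysed here.

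Regulators of chemokine transcription and mRNA decay changed in mixed directions. Of 14 tested NF-kappaB pathway genes, 6 rose and 1 fell at 2 h of PDGF, beside 17.7% and 12.7% of all tested genes. The list held subunits and inhibitors, and also kinase components and adaptors. Nfkb1, which encodes the p105 precursor of the p50 subunit, rose by 1.88 ± 0.18, and Nfkbiz, an inducible nuclear cofactor, by 1.91 ± 0.21. At 24 h of PDGF 7 rose, beside 37.7% of all tested genes. This became 2 of the 13 tested on the median-centred scale, where 14.8% of all genes were higher. With JQ1 at 2 h 6 fell and 2 rose relative to PDGF, beside 34.0% and 7.24% of all tested genes, with Nfkb1 at -1.42 ± 0.16 and Nfkbia, which encodes the inhibitor IkappaB-alpha, at 0.75 ± 0.17. At 24 h 4 fell and 2 rose with JQ1, beside 48.5% and 4.61% of all tested genes, with Nfkbia at 1.17 ± 0.17 (1.67 centred). On the median-centred scale 1 fell and 3 rose, beside 25.8% and 23.1% of all genes.

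Of 6 tested genes listed as regulators of chemokine mRNA decay, 4 rose at 2 h of PDGF, beside 17.7% of all tested genes. The 4 were Zfp36, Zfp36l1, Zc3h12a and Elavl1, and the list was not limited to genes that speed decay. At 24 h 3 rose, beside 37.7%, and none of these calls held on the median-centred scale. Zfp36, which encodes tristetraprolin, a protein that binds AU-rich elements and speeds decay, had 94.0, 96.0 and 126 normalised FPKM after 2 h of PDGF, against 21.8 and 24.3 at 0 h. It was higher again with JQ1, at 177, 212 and 232 with JQ1 plus PDGF at 2 h, against 94.0, 96.0 and 126 with PDGF. The log2 difference for JQ1 was 0.97 ± 0.16 at 2 h and 1.32 ± 0.16 at 24 h (limma, adjusted p = 0.000216 and 5.26e-06). The other genes of this list that passed with JQ1 were lower on this scale, 3 at each time, beside 34.0% of all tested genes at 2 h and 48.5% at 24 h. Zfp36 was the 1 gene of the list that was higher at each time, beside 7.24% and 4.61%. On the median-centred scale 1 gene of the list was lower and 1 higher at 2 h, beside 21.5% and 20.1% of all genes. At 24 h 1 was lower and 2 were higher on that scale, counting Zfp36, beside 25.8% and 23.1%.

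Of 4 tested genes for cleavage and shedding, 1 rose at 2 h and 4 rose at 24 h of PDGF, beside 17.7% and 37.7% of all tested genes. On the median-centred scale 3 rose at 24 h, beside 14.8%. With JQ1, 2 fell and 1 rose at 2 h, beside 34.0% of all tested genes lower and 7.24% higher. At 24 h 2 fell, beside 48.5% lower. On the median-centred scale 1 fell and 1 rose at 2 h, beside 21.5% and 20.1% of all genes. At 24 h 2 fell and 1 rose on that scale, beside 25.8% and 23.1%. Mmp2, a gelatinase that cleaves CXCL12 and CCL7, fell by 4.20 with JQ1 at 24 h, and the sheddase gene Adam10 was higher by 0.55 ± 0.18 at 2 h. Both PDGF receptor genes fell at 2 h of PDGF, Pdgfra by 0.93 and Pdgfrb by 0.65, and both were higher at 24 h than at 0 h, by 1.26 ± 0.23 and 0.60 ± 0.14 (limma, adjusted p = 0.000474 and 0.00357). On the median-centred scale Pdgfrb did not pass at 24 h (0.14, adjusted p = 0.182). Both also fell with JQ1, Pdgfra by 3.43 and Pdgfrb by 1.97 at 24 h.

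**Figure D5:**
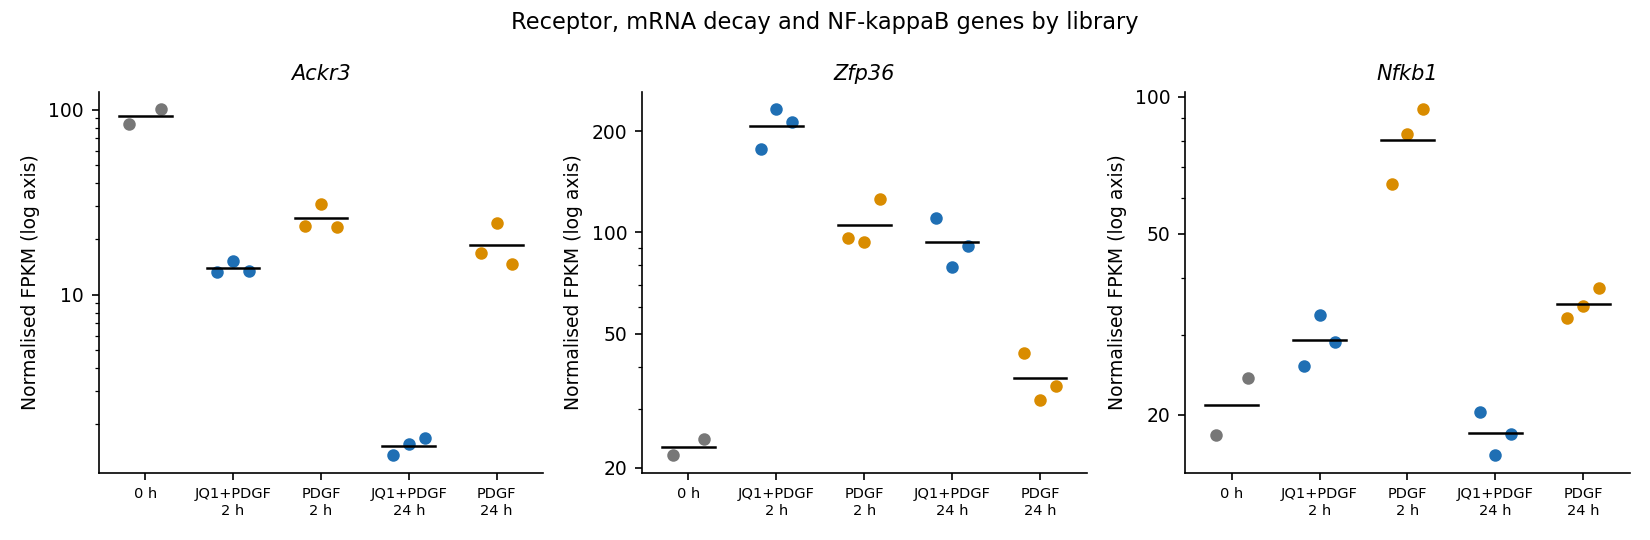
Normalised FPKM (log axis) of Ackr3 (scavenging receptor of CXCL12), Zfp36 (mRNA decay) and Nfkb1 (NF-kappaB subunit) in each of the 14 libraries; points are libraries, bars are group means, with grey for 0 h, blue for JQ1 plus PDGF and orange for PDGF. Ackr3 is lowest with JQ1 plus PDGF at 24 h (1.35 to 1.67), and Zfp36 is higher with JQ1 plus PDGF than with PDGF at both times.

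Among all 10132 other tested genes, those with the highest Pearson correlation to a member over the 14 libraries were listed as a description. The libraries share 5 groups, so high values are easily reached. For Cxcl12 they were Kif23 (r = 0.993), a mitotic kinesin gene, Lmod1 (0.993), which encodes the smooth muscle actin regulator leiomodin, and Smoc1 (0.993). For Ccl2 they were Socs5 (0.981), Actr3b (0.965) and LOC688459 (0.961), and for Ccl7 they were Arl4c (0.981), Adss (0.980) and Creb3l1 (0.949). Arl4c, a small GTPase gene, stood at 1.41 ± 0.16 normalised FPKM with JQ1 plus PDGF at 24 h and at 13.8 ± 2.21 with PDGF (SD, n = 3 each). For Cx3cl1 they were Psme2 (0.971), Fam214b (0.961) and Slc39a6 (0.956), for Cxcl10 Nfil3 (0.934), Pgam5 (0.928) and Hmox1 (0.927), and for Cxcl1 Vwa7 (0.868), Aldh1a3 (0.832) and Rbm17 (0.829).

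The libraries carried smooth muscle markers, and their summed level was lowest at 24 h. Not every marker fell. At 24 h of PDGF 4 of the 6 were lower than at 0 h and 2 did not pass, beside 4.85% of all tested genes lower. Against 2 h of PDGF 4 were lower and 1 was higher, beside 11.8% lower and 44.5% higher. The summed level of 6 markers led by Acta2 and Tagln was 8745 to 10593 normalised FPKM at 0 h, 10070.5 to 13475 at 2 h of PDGF and 1707 to 1939 at 24 h, and it was 327 to 481 with JQ1 plus PDGF at 24 h. Of 8 leukocyte markers 2 were tested, and Ptprc, Adgre1 and Cd3e were listed at 0 in all libraries. The leukocyte sum was 8.31 to 18.7 with JQ1 plus PDGF at 24 h, against 50.5 to 73.4 with PDGF, and it was 14.2 to 18.4 at 0 h. Cd14 led it in the PDGF groups and at 0 h, whereas Cd68 (7.77) was above Cd14 (4.2) with JQ1 plus PDGF at 24 h. Cd68 rose by 2.33 ± 0.40 and Cd14 fell by 3.49 on the log2 scale with JQ1 at 24 h (limma, adjusted p = 0.000155 and 2.89e-09). Of 6 endothelial markers 2 were tested and Cdh5 was at 0 throughout. Their sum, mainly Eng, was 18 to 24.2 with JQ1 plus PDGF at 24 h, against 120 to 144 with PDGF. Of 6 adventitial fibroblast markers 5 had a row and 3 were tested, and Dpt was at 0 in all libraries. Their sum, led by Lum, was 5.54 to 7.51 with JQ1 plus PDGF at 24 h, against 132 to 150 with PDGF. At 2 h the smooth muscle sum was 12863 to 13714 with JQ1 plus PDGF, against 10070.5 to 13475 with PDGF, which overlapped. In unnormalised FPKM this sum was higher with JQ1 plus PDGF, at 16655 to 16967 against 10817 to 11455, with no overlap. On the normalised scale the leukocyte sum was 6.34 to 9.40 against 16.8 to 26.6 and the endothelial sum 17.0 to 19.5 against 39.4 to 58.4. The fibroblast sum was 74.9 to 83.9 against 99.7 to 119.7, and each was lower with JQ1 plus PDGF. In unnormalised FPKM the fibroblast sums overlapped, at 90.2 to 108 with JQ1 plus PDGF and 102 to 115 with PDGF. All 4 sums were lower with JQ1 plus PDGF at 24 h, as were Ccl2, Ccl7, Cx3cl1 and Cxcl12, and their part in these differences was not tested.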

How the data were processed

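Polyadenylated RNA was spiked with ERCC transcripts, made into libraries with a stranded kit and read as 40 bp single ends, per the labels' protocols. HISAT and Cufflinks 2.0.0 with build rn6 are named in the submitters' processing notes, while no annotation is named there. The authors deposited 2 tables of FPKM for 17404 features (17312 genes and 92 spike-ins), 1 unnormalised and 1 normalised. How the second was made is not stated. Columns match the groups of the sample titles but end in digits where titles carry letters, so a library is called by its group and its digit, and 0 columns were without a group.

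limma 3.58.1 in R 4.3.3 was run on log2(normalised FPKM + 1), with 1 model over 5 groups, 9 residual degrees of freedom and moderation with a mean trend. A count model was not run, since FPKM are not counts. Without a known depth, low values carry no interval. An exact permutation test of 3 libraries against 3, or 3 against 2, cannot go below 0.1. The code was tested on simulated data. For median-centring, unnormalised FPKM were divided by median-ratio size factors (9980 genes tested). Alternatives were another pseudocount, no filter, the median-centred scale, the compared groups only, no trend, robust moderation and left-out libraries.

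The members and gene lists (other ligands, receptors, NF-kappaB, mRNA decay, cleavage, PDGF receptors and cell type markers) were chosen with earlier results of these data known. All members are named. Each list may give up to 4 genes that passed with the largest differences per comparison, and each member its 3 most correlated genes. Nfkbia at 2 h and Ccrl2, Cxcr4, Ccl12, Cxcl9, Cxcl11 and the receptors at 0 were named after their values were seen.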

Additional observations from a re-analysis of the deposited data

Results flagged for a closer look

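The difference between JQ1 plus PDGF and PDGF was not the same at 24 h as at 2 h in the 6 tested ligand genes, by the test of that change itself (limma, adjusted p under 0.05 for each). On the log2 scale the change, 24 h minus 2 h, was -3.25 for Cxcl12, -2.91 for Ccl7 and -1.21 for Cx3cl1, and 0.84 for Ccl2, 2.58 for Cxcl10 and 3.22 for Cxcl1. In Ccl2 it no longer passed in 8 of the alternatives, where it lay between 0.60 and 0.84. In the other genes it passed in each alternative run. The Cxcl1 and Cxcl10 values rest on low levels at 24 h, and Cxcl1 was listed at 0 in 1 library of each of 2 groups.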

How the results depend on the processing

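Of 636 alternative values for 48 differences of ligand genes, 600 kept their direction and their side of the threshold, 23 no longer passed, 5 newly passed and 8 changed sign. The changed signs belonged to differences that did not pass. These were Cxcl1 for PDGF 24 h against 0 h (0.0922 without PDGF 24 h replicate 0, and also without that library and PDGF 2 h replicate 1 together, with -0.52 to 0.0922 over single libraries left out), Cxcl1 for JQ1 plus PDGF 2 h against 0 h (-0.42 with a pseudocount of 0.1 and -0.56 without JQ1 plus PDGF 2 h replicate 1, with -0.56 to 0.74 over single libraries), Cx3cl1 for PDGF 24 h against 2 h (-0.21 on the median-centred scale) and Cx3cl1 for JQ1 plus PDGF 24 h against 0 h (0.0057 on the median-centred scale, 0.0371 without unstimulated replicate 0 and 0.0150 without JQ1 plus PDGF 24 h replicate 1, with -0.23 to 0.0371 over single libraries). Of 212 alternative counts of members, 207 lay within 1.5 times the count given. The count of members higher with JQ1 at 24 h, 1 gene (Cxcl10), was 0 without a filter on low values and 0 to 1 when a library was left out. The cause of these changes was not tested. Leaving out an unstimulated library leaves a lone one, which is assumed to vary like the other groups. No paired analysis was possible because the columns carry digits that match no letter of the sample titles. With depth unknown, changes of Cxcl1 and Cxcl10 at a few FPKM are the least certain.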
